A study of Mus musculus with 4 samples.

Results

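The circular RNAs of Lrp1b, 1 giant gene of mouse chromosome 2, were followed over 4 brain libraries of a stroke experiment. A circRNA was taken as a member when 1 or both of its ends lay on an exon boundary of Lrp1b in the GENCODE M21 annotation of GRCm38. The gene itself was chosen by its number of circRNAs in this table, so that number is a description. The rule gave 58 of the 23980 circRNAs in the deposited count table. Both ends lay on Lrp1b exon boundaries for 56 of them and 1 end for the other 2. One further circRNA lay inside the gene with neither end on a boundary, and was not a member (chr2:42599067-42600325, with counts of 3, 0, 0 and 0 in core frontal, core occipital, penumbra and sham). A circRNA enters the table only with a summed count of 2 or more, and 14 members stood at that lowest sum.

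Circular RNAs form when the splicing machinery joins the end of an exon back to the start of the same or an earlier exon, so that the enclosed exons close into a ring without free ends. Such rings resist exonucleases, and many are made from long neuronal genes in brain. Lrp1b encodes a very large endocytic receptor of the LDL receptor family, whose extracellular part is built from many ligand-binding and EGF-like repeats, and it is expressed in neurons. The gene lies on the minus strand at chr2:40595246-42653624 and spans 2058379 bases. The longest annotated exon chain, used here to number exons in the direction of transcription, has 91 exons joined into 16294 bases, with a median intron of 5892 bases.

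Each group was a single library made from total RNA of brain tissue. Core frontal and core occipital are the infarct core near the frontal and the occipital lobe, and penumbra is the threatened tissue around the core. These 3 libraries came from mice 3 h after middle cerebral artery occlusion (MCAO), which starves part of a hemisphere of blood, and each held RNA pooled from 6 mice. Sham is the library of sham-operated mice, taken from cortex that corresponds to the core and penumbra. Strain, age and sex, and how many sham mice were used and when, are not given in these sources. The total circRNA counts were 121393 for the frontal core, 83090 for the occipital core, 96349 for penumbra and 106558 for sham, and every series of 4 values below follows this order. No group had a replicate, so the tests compare libraries and not conditions, and all intervals are 95% intervals for counting error. No molecular identifiers are named for these libraries, so PCR copies of 1 molecule may be counted as several.

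The sequence at the back-splice junction identifies each ring. Junctions are printed from GENCODE M21 transcripts on GRCm38, minus strand, 5′ to 3′, for the 15 most abundant members. The last 25 bases of the last exon are in lower case and the first 25 bases of the first exon are in capitals. The first 5 share the 3′ part of the gene around exon 67, and 4 of them have the same capitals, the start of exon 67.
Exons 67 to 72, chr2:40715372-40751016: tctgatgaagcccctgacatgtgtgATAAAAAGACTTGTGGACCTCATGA
Exons 67 to 71, chr2:40725382-40751016: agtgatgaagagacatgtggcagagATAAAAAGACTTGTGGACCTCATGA
Exons 67 to 77, chr2:40697350-40751016: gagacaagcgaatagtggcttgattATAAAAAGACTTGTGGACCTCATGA
Exons 67 to 79, chr2:40677491-40751016: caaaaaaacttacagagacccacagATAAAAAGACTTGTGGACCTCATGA
Exons 68 to 71, chr2:40725382-40742868: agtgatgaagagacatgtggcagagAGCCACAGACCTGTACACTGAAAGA

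The next 6 junctions come from the middle of the gene and from its 5′ part. They show the reuse of single ends: exon 41 closes onto exon 38 or 36, exon 20 onto exon 17 or 8, and exon 21 onto exon 17 or 18.
Exons 38 to 41, chr2:41110754-41113094: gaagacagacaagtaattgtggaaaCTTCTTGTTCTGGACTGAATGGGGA
Exons 36 to 41, chr2:41110754-41123733: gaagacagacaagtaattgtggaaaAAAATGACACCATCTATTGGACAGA
Exons 17 to 20, chr2:41408235-41445226: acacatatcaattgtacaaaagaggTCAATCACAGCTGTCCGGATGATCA
Exons 17 to 21, chr2:41375834-41445226: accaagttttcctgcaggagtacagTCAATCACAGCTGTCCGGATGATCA
Exons 18 to 21, chr2:41375834-41435633: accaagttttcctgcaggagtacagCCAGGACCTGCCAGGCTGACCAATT
Exons 8 to 20, chr2:41408235-41511627: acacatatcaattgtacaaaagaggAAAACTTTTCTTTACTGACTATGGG

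The last 4 come from other stretches of the gene. Exons 48 to 49 make the shortest member by genomic span, with 503 bases. The ring of exons 3 to 5 spans 189934 bases, of which 387 would remain with every annotated exon kept.
Exons 44 to 47, chr2:40919136-40928022: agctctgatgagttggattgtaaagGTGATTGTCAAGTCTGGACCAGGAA
Exons 48 to 49, chr2:40902977-40903479: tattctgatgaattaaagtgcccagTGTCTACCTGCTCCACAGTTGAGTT
Exons 3 to 5, chr2:41770845-41960778: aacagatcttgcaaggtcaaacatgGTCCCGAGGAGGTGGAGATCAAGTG
Exons 30 to 31, chr2:41268337-41269329: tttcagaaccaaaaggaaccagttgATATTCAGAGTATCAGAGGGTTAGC

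The 2 exons that meet in the most abundant ring, exons 67 to 72, are shown whole because this ring had the highest summed count. Exon 67 (chr2:40750900-40751016, 117 bases) opened 30.1% of all Lrp1b counts, and its first 25 bases are in capitals. Exon 72 (chr2:40715372-40715494, 123 bases) closed 17.1% of them, and the string TGATGA, taken up again below, is in capitals.
Exon 67: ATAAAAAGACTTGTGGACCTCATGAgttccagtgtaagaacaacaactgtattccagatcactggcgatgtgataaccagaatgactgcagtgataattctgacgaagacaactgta
Exon 72: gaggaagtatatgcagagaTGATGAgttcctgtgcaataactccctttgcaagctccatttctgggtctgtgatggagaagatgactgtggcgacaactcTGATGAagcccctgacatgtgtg
With every annotated exon between them the ring would have 717 bases, which a junction count alone cannot show.

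Lrp1b made many rings, none of them dominant. Its 58 circRNAs placed it 6th among 5302 host genes, after Dgki with 75, Nbea with 71, Rims2 and Ptk2 with 68 each and Arhgap10 with 59. The median host had 2. The 58 members together held 738 counts, rank 77 among hosts. The 82 hosts within 1.5-fold of that sum, Lrp1b included, had a median of 17 circRNAs. The most abundant member held 15.4% of the summed count. Among the 875 hosts with 100 or more counts, the median share of the leading circRNA was 49.0%, and 16 hosts had a lower share than Lrp1b. These numbers describe what the choice of the gene rests on, and they were not tested.

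Most members were rare. A count of 10 or more over the 4 libraries was reached by 20 members, which held 80.8% of all Lrp1b counts. The 14 members at the lowest sum of 2 made up 24.1% of members, beside 20.5% of the whole table. All 4 libraries detected 16 members (27.6%, beside 30.4% of the table). The libraries detected 43, 42, 39 and 33 members. Thinned to 142 Lrp1b counts each, the expected numbers were 34.5, 41.9, 39.0 and 31.6. They were higher in core occipital and penumbra than in core frontal and sham, with no interval and no test. The effective number of isoforms, which weighs each ring by its share, was 22.5, 23.8, 24.2 and 19.0. It was not thinned, so core frontal, with more counts, is not on a par with the others.

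**Figure D1:**
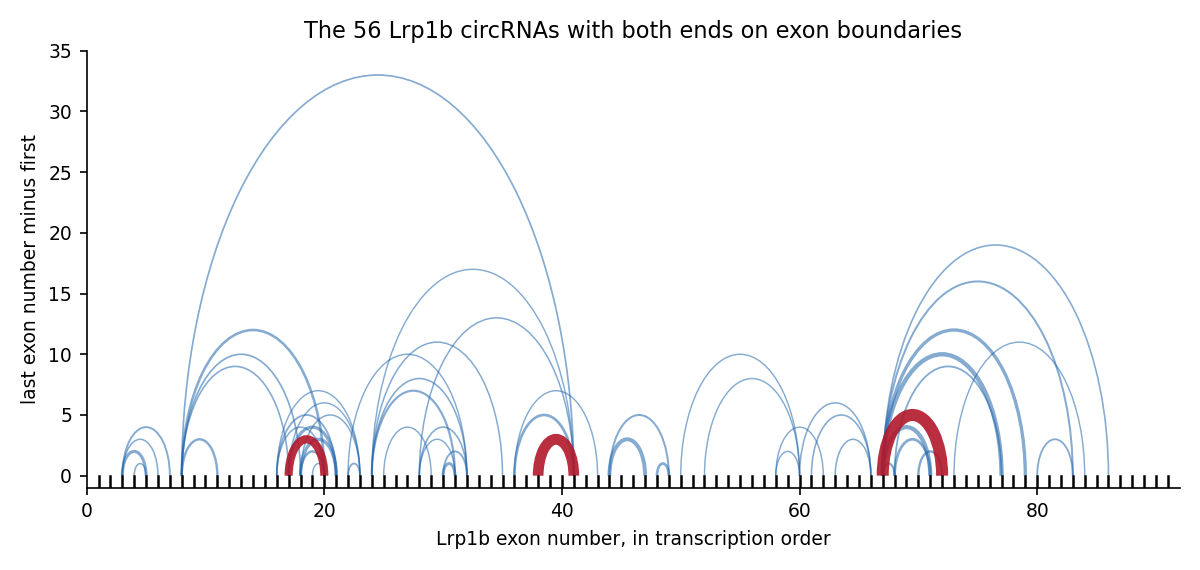
Each of the 56 members with both ends on exon boundaries is drawn as an arc from its first to its last exon (x axis, exon number in transcription order, with a tick per exon), and the arc's height is the last exon number minus the first (y axis). Line width follows the summed count over the 4 libraries, and the 3 most abundant rings are red. Arcs share feet at exons 8, 20, 41 and 67 among others, and reach from exon 3 to exon 86.

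Few exon boundaries carried most of the counts. Of the 89 inner exons, 28 served as a first exon and 28 as a last exon, with 4 exons (17, 18, 60 and 68) serving as both. Exon 2 is among the first exons only through a ring with a single annotated end. The 56 pairs seen are 1.40% of the 4005 pairs the inner exons could make. Exon 67 opened 7 rings with 222 counts, or 30.1% of the summed count, and its share was 31.1%, 30.8%, 28.9% and 28.8% in the 4 libraries. Exon 38 opened 1 ring with 100 counts (13.6%), and exon 17 opened 3 with 95 counts (12.9%). These 3 first exons together held 56.5% of the counts. The closing ends were similarly shared out: exon 72 closed 2 rings with 126 counts (17.1%), exon 41 closed 5 with 125 (16.9%) and exon 20 closed 5 with 105 (14.2%). The 7 partners of exon 67 were exons 68, 71, 72, 77, 79, 83 and 86.

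Most exons of the transcript lay within the ends of a ring. All 84 exons from 3 to 86 lay within at least 1 ring with both ends on exon boundaries. Cover here takes every annotated exon between the ends as kept, which junction counts cannot show. Exon 70 was covered most, by 9 rings with 246 counts, at 890, 493, 436 and 516 CPM, which is the count scaled to 1000000 circRNA counts in the library. In the 5′ part, exon 19 was covered at 593, 277, 457 and 235 CPM. Exon 40, in the middle, was covered at 371, 361, 166 and 338 CPM. Coverage at exon 70 and exon 19 was highest in core frontal, whereas at exon 40 both cores and sham lay close together above penumbra.

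**Figure D2:**
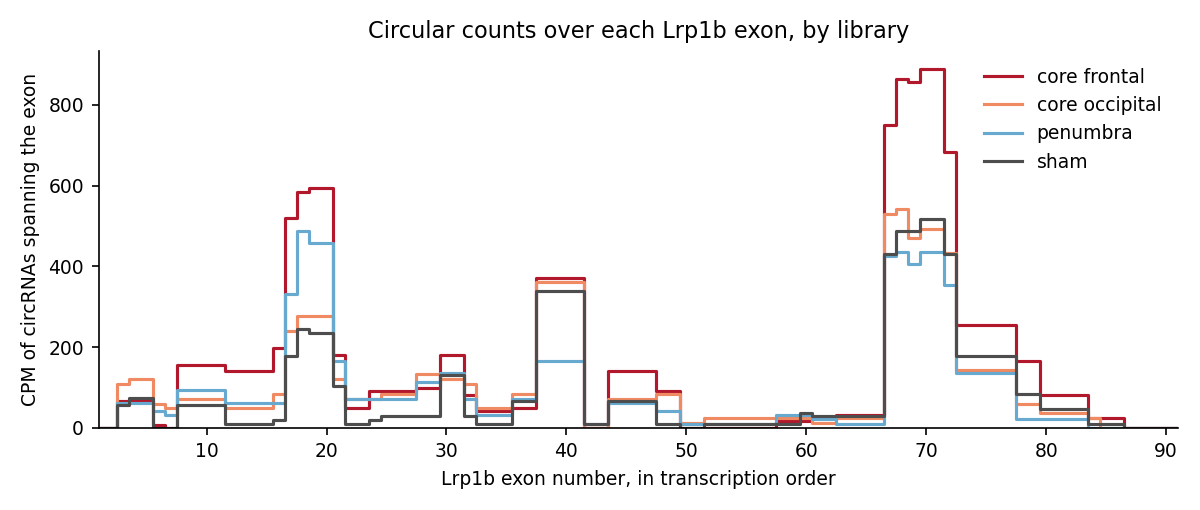
For every exon of Lrp1b (x axis, exon number), the y axis gives the summed CPM of the rings that enclose it, with 1 line per library. Peaks stand near exons 19, 40 and 70, and the penumbra line is the lowest at exon 40 (166 CPM) but the second highest at exon 19 (457 CPM).

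The used ends lie beside long introns. The intron before exons used as first had a median of 12504 bases, against 2782 bases before the 61 inner exons not so used. The intron after used last exons had a median of 21798 bases, against 2552 after the others. By ring, the flanking introns had medians of 21095 bases upstream and 29017 downstream, compared with 8347 and 6670 for 19468 other circRNAs of the table. Lrp1b has 10 introns over 50 kb. An exon that follows such an intron was a first exon in 7 of 10 cases, against 21 of 79 for the other introns. An inner exon that precedes one was a last exon in 7 of 9 cases, against 21 of 80. Some main ends lie beside introns over 50 kb: 50375 bases precede exon 67, 105996 follow exon 41, 159273 precede exon 8 and 70030 precede exon 44. Other main ends do not: exons 17, 18 and 38 have 3959, 9467 and 9816 bases before them, and exons 71, 72 and 20 have 9887, 11432 and 32218 bases after them. The limit of 50 kb was chosen after the data were seen, the rings share exons, and no test was made.

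The 56 rings with both ends on exon boundaries each enclosed at least 2 annotated exons. Exon numbers, spliced lengths and frame here take every annotated exon between the ends as kept, which junction counts cannot show. Of them 0 had a single exon, where 831 of 19586 circRNAs of the table (4.24%) had 1 exon. These rings held 2 to 34 exons with a median of 5.5, and weighted by counts the median was 4, the same as in the table. The spliced length ran from 224 to 5786 bases with a median of 812, beside 541 in the table. The genomic span had a median of 42715 bases, beside 12557. Of the 58 members, 12 spanned over 100 kb and held 8.94% of the counts, where 5.58% of circRNAs of the table spanned as much. A spliced length divisible by 3, which keeps the reading frame across the junction, was found for 39 of 56 rings (69.6%) with 66.3% of their counts. Over all circRNAs of the table it was 38%. Of the 89 inner Lrp1b exons, 54 (60.7%) have such a length themselves, and 54.2% of the 4005 possible pairs would be in frame.

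Several of the junctions printed above share a short string. TGATGA, searched on the transcript strand in the last 25 bases of an exon, lay at the end of 6 of the 28 used last exons (47, 49, 66, 68, 71 and 72) and 6 of the 61 unused inner exons. It lay at the end of the last exon in 11 of 56 rings, which held 33.5% of their counts. Other rings enclose such exons without closing at them, and are not in that number. Among the last exons of all other circRNAs, each taken once, 189 of 13702 (1.38%) held it. The reverse complement TCATCA was in 0 of the 89 inner Lrp1b exon ends and in 1.19% of the other last exons. The string was chosen after these junctions were seen, and it is a description of letters only.

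Both members with a single annotated end were rare. The ring at chr2:42272708-42323716 starts at exon 2, the only annotated exon inside it, and has its other end in the intron that follows, 50886 bases from the nearest boundary, with counts of 4, 1, 0 and 2. The ring at chr2:41245940-41312689 closes at exon 32 and opens 16 bases before exon 24, with counts of 1, 1, 0 and 0.

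The summed Lrp1b level was highest in the frontal core. The counts were 293, 143, 142 and 160, which is 2414 CPM (interval 2145 to 2706), 1721 (1451 to 2027), 1474 (1241 to 1737) and 1502 (1278 to 1753). The frontal interval lies above the other 3, which overlap one another. Lrp1b thus took 0.241%, 0.172%, 0.147% and 0.150% of all circRNA counts. Its rank among hosts was 54, 89, 101 and 99. In bulk tissue, fewer cells of a type and less RNA per cell cannot be told apart, and linear Lrp1b mRNA was not measured in this table.

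**Figure D3:**
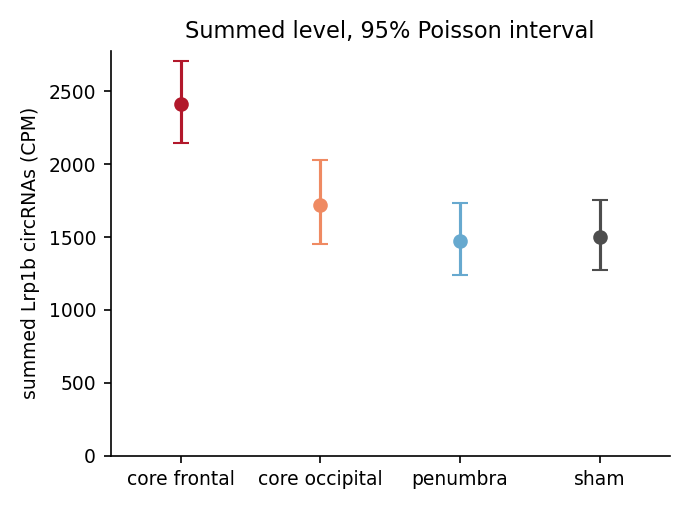
The summed CPM of the 58 Lrp1b circRNAs (y axis, starting at 0) is shown for each library with a 95% Poisson interval. Core frontal stands at 2414 CPM, and the other 3 lie between 1474 and 1721 CPM.

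Each of the 6 pairs of libraries was compared with Fisher's exact test (two-sided) of the host's count against the rest of each library, adjusted by Benjamini-Hochberg over all hosts with 10 or more counts in the pair. To be called, a host needed an adjusted p under 0.05 together with a ratio of at least 2 in either direction. The p-values are not adjusted over the 6 pairs, which share libraries. Core frontal against sham gave a CPM ratio of 1.61 (interval 1.32 to 1.96, adjusted p = 0.00141 by Fisher's exact test), past the p threshold but under 2-fold. Of the 2599 hosts tested, 1.27% passed that p threshold and 0.423% did so while higher in core frontal, and 0.616% were called. Core frontal against penumbra gave 1.64 (1.34 to 2.02, adjusted p = 0.000547 by the same exact test), where 1.49% of 2557 hosts passed the p threshold, 0.665% as higher, and 0.821% were called. Core frontal against core occipital gave 1.40 (1.14 to 1.73, adjusted p = 0.0548 by the exact test), with 1.45% of 2484 hosts past the p threshold. The call by p for that pair depended on the scaling: with edgeR's TMM factors the ratio was 1.49 (adjusted p = 0.0105 by the exact test), and with GC scaling it was 1.28 (adjusted p = 0.288).

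The other 3 pairs did not pass. Core occipital against sham gave a ratio of 1.15 (0.908 to 1.45, adjusted p = 0.683 by the exact test), penumbra against sham 0.982 (0.777 to 1.24, adjusted p = 1) and core occipital against penumbra 1.17 (0.919 to 1.48, adjusted p = 0.856). In these pairs 1.83%, 0.485% and 0.299% of hosts passed the p threshold. Libraries differed by more than counting error in general: over hosts with 100 or more counts in the pair, the extra standard deviation of the log ratio was 14.6% in core frontal with sham and 16.3% in core frontal with penumbra. Among those hosts, Lrp1b ranked 13 from the highest of 484 against sham, where the middle 90% of ratios ran from 0.707 to 1.46. Against penumbra it ranked 9 of 468, with ratios from 0.691 to 1.49. When edgeR took both cores as replicates of 1 group, the core to sham ratio was 1.33 and the core to penumbra ratio 1.34. Neither passed the p threshold in that fit. Sham and penumbra have 1 library each, so the only spread it holds is the difference between the 2 cores. The fit therefore cannot decide on the frontal difference.

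By CPM alone, the frontal excess differed between stretches of the gene. The rings were divided by exon number after their positions were seen, so the division carries no test. Exons 67 to 90, with 12 rings, stood at 923, 590, 477 and 535 CPM. Exons 8 to 23, with 15 rings, stood at 610, 349, 540 and 291 CPM, and were high in penumbra as well. Exons 44 to 60, with 6 rings, stood at 222, 144, 104 and 75.1 CPM. Exons 36 to 43, with 3 rings, stood at 330, 337, 135 and 338 CPM, near level in both cores and sham and low in penumbra. Most of the frontal excess over sham lay in exons 67 to 90 and exons 8 to 23. Exons 67 to 90 held 388 CPM, 42.5% of it, beside 35.6% of the sham Lrp1b counts. Exons 8 to 23 held 319 CPM, 34.9% of it, beside 19.4% of those counts. Exons 44 to 60 held 147 CPM, 16.2% of it, beside 5% of those counts. Exons 61 to 66 held 3.61% of it, and rings across these stretches 2.33%. Besides exons 36 to 43, 2 other stretches showed no excess. Exons 24 to 35 stood at 140 CPM in core frontal and 141 CPM in sham, and exons 2 to 7 at 65.9 and 75.1 CPM. No member's share within Lrp1b passed in core frontal against sham (lowest adjusted p = 0.277 by the exact test).

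Among single rings, the 3 most abundant showed 3 patterns. Exons 67 to 72 had counts of 48, 24, 18 and 24, or 395, 289, 187 and 225 CPM, highest in core frontal and lowest in penumbra. Exons 38 to 41 had counts of 39, 23, 9 and 29, or 321, 277, 93.4 and 272 CPM, with penumbra alone low. Exons 17 to 20 had counts of 31, 10, 20 and 12, or 255, 120, 208 and 113 CPM, with core frontal and penumbra above the other two. The ring with the highest count was 67 to 72 in both cores, 17 to 20 in penumbra and 38 to 41 in sham. These leads were small: 24 against 23 counts in core occipital, 20 against 18 in penumbra and 29 against 24 in sham. In each library the CPM interval of the leading ring overlapped that of the next, and no member's share passed in any pair. The share of 67 to 72 within Lrp1b was 16.4% (exact binomial interval 12.3 to 21.1), 16.8% (11.1 to 23.9), 12.7% (7.69 to 19.3) and 15% (9.85 to 21.5), with every interval overlapping the others. Of the 20 members with 10 or more counts, 13 (65%) had their highest CPM in core frontal, beside 27.1% of the 6736 circRNAs of the table with as many counts. Core frontal is the deepest library, and members can reach the count minimum through it, so no test was made.

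**Figure D4:**
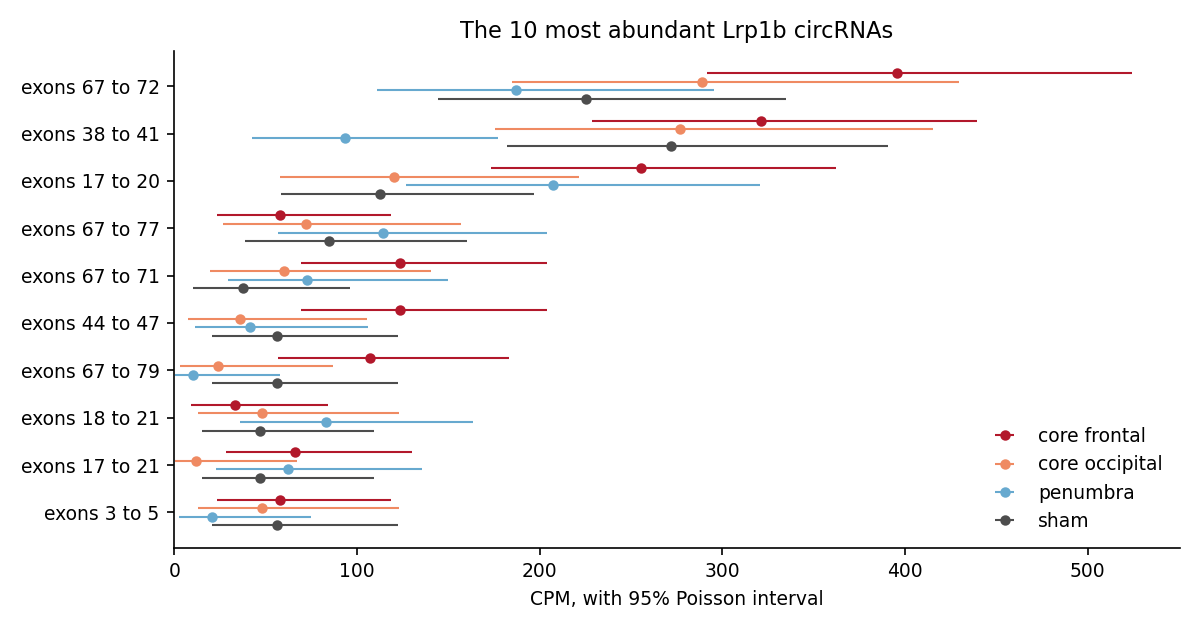
The CPM of the most abundant Lrp1b rings (x axis, with 95% Poisson intervals) is shown for each library in its own colour. Exons 38 to 41 sit at 93.4 CPM in penumbra against 272 to 321 CPM in the other 3 libraries, and most other intervals overlap.

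One ring passed the test in 1 pair. Exons 38 to 41 were higher in core frontal than in penumbra, 39 against 9 counts, a ratio of 3.44 (1.64 to 8.07, adjusted p = 0.0390 by Fisher's exact test over 3962 circRNAs). In that pair 0.934% of circRNAs were called, 0.404% as higher in core frontal, beside 1 of the 13 members tested. The call was lost without the count minimum, at the same ratio of 3.44 (adjusted p = 0.212 by the exact test), and with GC scaling, at a ratio of 3.10 (adjusted p = 0.0749). The same ring gave 0.343 (0.143 to 0.745) in penumbra against sham, unadjusted p = 0.00319 and adjusted p = 0.179 by the exact test. Core occipital against penumbra gave 2.96 (1.32 to 7.28, adjusted p = 0.456 by the exact test). The penumbra value was the lowest of this ring in each of these pairs, which share that library. With the Lrp1b sum as the denominator, its share was 13.3%, 16.1%, 6.34% and 18.1%, and core frontal against penumbra gave an odds ratio of 2.27 with an adjusted p = 0.459 by the exact test.

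Other rings missed the threshold. Exons 17 to 20 gave 2.27 (1.13 to 4.85, adjusted p = 0.197 by the exact test) in core frontal against sham, and exons 67 to 72 gave 1.76 (1.05 to 3.00, adjusted p = 0.257). Exons 67 to 79 had 13, 2, 1 and 6 counts, and core frontal against penumbra gave 10.3 (1.55 to 438, adjusted p = 0.129 by the exact test), an interval too wide to give a size. Exons 8 to 20 had 10, 2, 2 and 0 counts. Core frontal stood 2.93-fold above the floor of 3 counts set for sham (adjusted p = 0.0876 by the exact test). The exact interval of that ratio began at 1.97 and had no upper limit. Exons 30 to 31 ran the other way, with 6, 0, 2 and 10 counts, and core occipital against sham gave an adjusted p = 0.131 by the exact test. Exons 48 to 49 had 9, 4, 2 and 0 counts, and exons 68 to 71 had 10, 0, 1 and 5. Single counts decide these values. The floor of 3 counts, set in place of a count of 0, is 24.7, 36.1, 31.1 and 28.2 CPM in the 4 libraries. It leaves out counting error and is not an upper limit.

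The remaining named rings were small and showed no common order. Exons 67 to 71 had 15, 5, 7 and 4 counts and exons 44 to 47 had 15, 3, 4 and 6, both highest in core frontal. Exons 67 to 77 had 7, 6, 11 and 9 counts, exons 18 to 21 had 4, 4, 8 and 5, and exons 17 to 21 had 8, 1, 6 and 5. Exons 3 to 5 had 7, 4, 2 and 6 counts and exons 36 to 41 had 1, 5, 3 and 6. The other 43 members had summed counts of 2 to 13.

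Of the members with 10 or more counts in a pair, 10 of 12 were higher in core frontal than in sham, with a median ratio of 1.76 beside 1.02 over all circRNAs tested, of which 52.1% were higher. Core frontal against penumbra gave 10 of 13 (median 2.12, beside 1.03 and 52.2%), and core frontal against core occipital 10 of 11 (median 2.05, beside 1.05 and 54.3%). In core occipital against sham 4 of 7 were higher, in penumbra against sham 5 of 9 and in core occipital against penumbra 2 of 6, beside 46.9%, 50.4% and 48% of all circRNAs tested. Members pass the count minimum through the library where they are high, so these counts support nothing on their own. No member was called in the other 5 pairs, where 0.747%, 0.467%, 0.0538%, 0.0606% and 0.344% of circRNAs were called in core frontal against sham, core occipital against sham, penumbra against sham, core occipital against penumbra and core frontal against core occipital. No member's share within Lrp1b passed in any pair (lowest adjusted p = 0.195, exons 30 to 31 in core occipital against sham, by the exact test). Of the isoforms in the table, 0.248% were called by share in core frontal against penumbra, 0.211% and 0.128% in core frontal and core occipital against sham, 0.173% in core frontal against core occipital, 0.0293% in penumbra against sham and 0% in core occipital against penumbra.

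Lrp1b was set beside genes of related function, from lists made for this purpose. Of 15 other LDL receptor family genes, 8 had circRNAs and 5 could be tested, and none passed an adjusted p under 0.05 in any pair. Their median ratio was 1.15 in core frontal against sham and 0.974 in core frontal against penumbra. Lrp6, a Wnt co-receptor, had 91, 76, 84 and 83 counts, or 750, 915, 872 and 779 CPM, lowest in core frontal. Lrp8, a reelin receptor, had 42, 34, 28 and 32 counts, or 346, 409, 291 and 300 CPM. Sorl1, a sorting receptor for the amyloid precursor protein, had 27, 24, 22 and 17 counts, or 222, 289, 228 and 160 CPM. Ldlrad4 had 36, 23, 26 and 22 counts, or 297, 277, 270 and 206 CPM. Lrp11 had 5, 6, 7 and 7 counts, or 41.2, 72.2, 72.7 and 65.7 CPM. Of 18 genes for ligands, adaptors and processing of these receptors, 4 had circRNAs and 3 were tested, with none past the threshold. App, the amyloid precursor protein, had 67, 74, 87 and 62 counts, or 552, 891, 903 and 582 CPM. Dab1, an adaptor of reelin signalling, had 23, 9, 10 and 22 counts, or 189, 108, 104 and 206 CPM. Furin, a proprotein protease, had 12, 18, 13 and 17 counts, or 98.9, 217, 135 and 160 CPM.

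Other giant genes are given beside it. Lrp1b is the 6th longest of the 54 protein-coding hosts that span over 1 Mb, and none of the others had more circRNAs (median of all 7.5). Of the other 53, 41 to 44 could be tested in each pair and none passed an adjusted p under 0.05. In core frontal against sham their ratios ran from 0.553 to 4.10 with a median of 1.08, and 4 were above Lrp1b. In core frontal against penumbra they ran from 0.441 to 1.85 with a median of 0.946, and 2 were above it. No test of Lrp1b against this group was made.

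**Figure D5:**
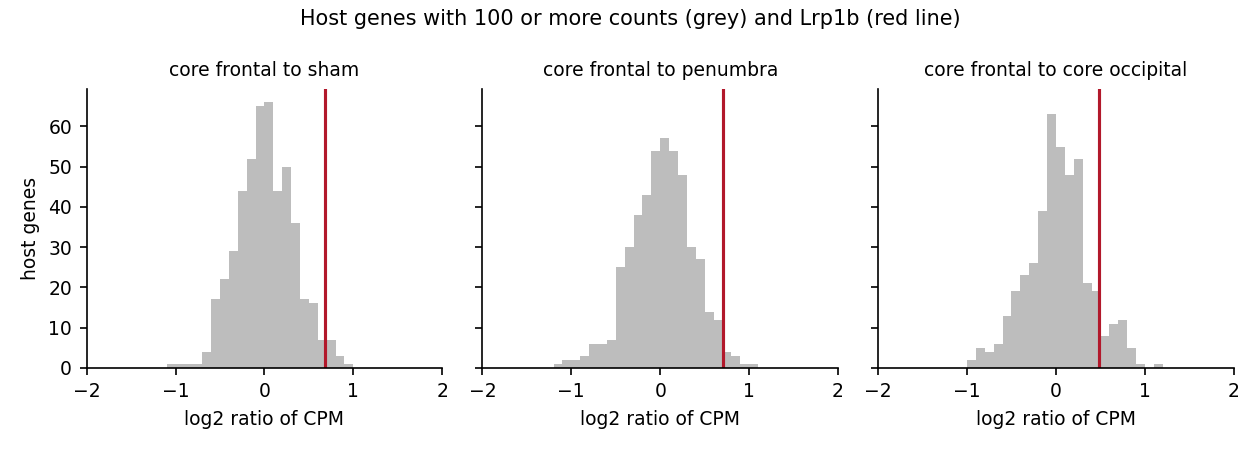
Grey histograms give the number of host genes (y axis) by their log2 CPM ratio (x axis) in core frontal against sham, penumbra and core occipital, for hosts with 100 or more counts in the pair, and the red line is Lrp1b. Its ratios of 1.61, 1.64 and 1.40 lie in the right tail, at rank 13 of 484, 9 of 468 and 41 of 433.

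The hosts with the pattern most like that of Lrp1b over the 4 libraries, by Euclidean distance of log2 CPM ratios to the mean among 874 hosts with 100 or more counts, were Dnm3 (distance 0.11), Nab1 (0.17), Trappc11 (0.18), Atg4c (0.18) and R3hdm1 (0.18). Dnm3, a dynamin of endocytosis, had 87, 45, 45 and 53 counts. Atg4c, an autophagy protease, had 92, 39, 40 and 50. With 4 points per host, such likeness is a description.

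Marker genes of brain cell types bear on the tissue only through their own circRNAs, as the table holds no mRNA. Of 8 neuron markers 4 had circRNAs, with summed counts of 129, 124, 129 and 120, or 1063, 1492, 1339 and 1126 CPM. That is lowest in core frontal, with sham close to it. Of the 2 that could be tested in core frontal against sham, 1 had a ratio above 1 and 1 below, and neither passed. Of 6 astrocyte markers 2 had them, with 14, 11, 13 and 7 counts, or 115, 132, 135 and 65.7 CPM. Of 4 endothelial markers 1 had them, with 1, 1, 1 and 0 counts. The oligodendrocyte, precursor and microglia lists had no circRNAs. The part of cell composition in the frontal level was not tested. Lrp1b rings have a median GC content of 43.9%, beside 47.6% for the table, and circRNAs of the same GC content gave a ratio of 1.01 in core frontal against sham and 1.07 in core frontal against penumbra.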

How the data were processed

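RNA sequencing of 4 pooled brain libraries gave the circRNA table. Trizol RNA was depleted of ribosomal RNA, per the labels, and a TruSeq and a NEBNext directional kit are both named. The authors deposited a raw read count for each circRNA, without normalization. The submitters' processing notes list TopHat2 2.0.10, Bowtie and mm9, while these sources name no circRNA caller or annotation. The deposited FPKM values equal the count over the genomic span and library total, to a relative difference of 5.11e-15, and were not used further. GRCm38 was taken as the build because 89.1% of starts and 89.7% of ends match GENCODE M21 exon boundaries, against 0.192% of starts moved by 1 base. All coordinates are deposited ones, 1-based, on that build.

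Groups follow the tissue and treatment labels. The table names neither strand nor gene, so the host and its strand come from the annotation, and 0 columns belonged to other samples. CPM is the count over the library's total circRNA count. Fisher's exact test covered every circRNA, host or isoform share with 10 or more counts in a pair, with Benjamini-Hochberg adjustment. It was tried on simulated libraries with counting error only. That trial cannot show how the p-values hold under the larger spread between the real libraries. A count of 0 was set to 3 for a ratio, which is then a bound that leaves out counting error. Ratio intervals are exact conditional, CPM intervals Poisson and shares exact binomial (Clopper-Pearson), at 95%. Sequences came from the GENCODE M21 transcript with 91 exons. The bases beside the ends were not analysed here, for want of a genome sequence. Tools were Python 3.11.15, SciPy 1.17.1, R 4.3.3, edgeR 4.0.16 and DESeq2 1.42.0.

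The members and lists were chosen with earlier results of these data known. Named members are the 15 with the highest sums and any called, named hosts the 5 with most circRNAs and the 5 most like Lrp1b. Members outside that rule (rings to exons 68, 83 and 86, and those with a single annotated end) were named after their values were seen. Alternatives were TMM and DESeq2 scaling, no count minimum, a minimum of 30, both ends only, rings inside the gene included, the most abundant member left out, a quasi-likelihood fit in edgeR that joins the cores into 1 group, and each circRNA counted once. Scaling by GC content was added after the data were seen.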

Additional observations from a re-analysis of the deposited data

How the results depend on the processing

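The frontal excess kept its direction and its side of the p threshold against sham and penumbra under every scaling, count minimum and choice of members tried. With both cores as 1 group in edgeR, the ratio fell short of it: 1.33 against sham and 1.34 against penumbra. That fit takes the difference between 2 core regions as its only replicate error, so it cannot decide on the frontal excess. Core frontal against core occipital passed the threshold with TMM (1.49, adjusted p = 0.0105 by Fisher's exact test), DESeq2 size factors (1.43, 0.0331), a minimum of 30 counts (1.40, 0.0358) and the inner circRNA included (1.42, 0.0426). It did not pass with GC scaling (1.28, 0.288), no count minimum (1.40, 0.108), both ends only (1.40, 0.0606) or without exons 67 to 72 (1.41, 0.0759). Penumbra against sham turned from 0.982 to 1.01 without exons 67 to 72 and to 1.03 with GC scaling, on either side of no difference. The 1 member called in core frontal against penumbra became 0 without a count minimum (ratio still 3.44), with GC scaling (3.10) and in edgeR. Without the minimum the counts and the exact test of this ring are the same, and the adjustment runs over more circRNAs. The edgeR fit set both cores against penumbra, which is another comparison. The cause of the loss with GC scaling was not tested. With each circRNA counted once, in place of counts, exon 67 opened 12.1% of rings and exon 72 closed 3.45%. No paired analysis was possible because each group has 1 library, and for the same reason no library could be left out. Depth limits single rings: 10 counts are few, and a ring at 0 may be present below 3 counts.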
